A study of Homo sapiens with 16 samples.

Results

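BIRC7 and NKAIN4 are neighbouring genes on chromosome 20, and they were chosen by the measured change in peak length around them, TGF-beta against vehicle, in all 3 profiled targets. Their values are therefore given as a description, without a test. They are 2 of 19974 protein-coding genes annotated by RefSeq on GRCh38. All peaks over their joined span, with 50 kb on each side, were taken from the peak files of 12 libraries, which gave 154 of 692199 peaks.

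The cells were H69, human cholangiocytes (the lining epithelium of bile ducts) made into a line by viral transformation, so every value belongs to 1 established line. They received recombinant human TGF-beta at 10 ng/ml for 16 h or vehicle, and the labels name no other treatment and no engineered allele. ChIP-seq, the sequencing of immunoprecipitated chromatin, was run for SMAD3, a transcription factor that TGF-beta receptors activate, and for H3K27ac and H3K9ac, histone acetylation marks of active enhancers and promoters. Each target had 2 TGF-beta and 2 vehicle libraries, numbered 4 and 5 for SMAD3 and 1 and 2 for each mark; 4 input samples were not used here.

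The libraries held 33700 and 34413 SMAD3 peaks with TGF-beta and 22451 and 25268 with vehicle, 90092 to 92714 H3K27ac peaks with TGF-beta and 82259 to 83429 with vehicle, and 54682 to 61297 H3K9ac peaks over both treatments. Reads are not counted in these files and their depth is unknown. In bulk chromatin, a peak in more cells and a stronger peak per cell cannot be told apart. Of 10 cholangiocyte markers, 8 had H3K27ac peaks in their span in every H3K27ac library, and CFTR was listed at 0 in every one. These markers summed to 71.0 to 71.1 kb with TGF-beta and 78.9 to 86.8 kb with vehicle. Markers of other cells were partly covered. H3K27ac in mesenchymal markers summed to 24.7 to 25.2 kb with TGF-beta and to 14.0 to 16.3 kb with vehicle, with 3 of 5 covered in all and DES at 0. Melanocyte markers summed to 13.3 to 13.6 kb with TGF-beta and 11.7 to 12.3 kb with vehicle, with 3 of 6 covered in all and MLANA and TYR at 0. Neural markers summed to 18.9 to 19.8 and 19.4 to 20.1 kb with TGF-beta and vehicle, with 3 of 5 covered in all and RBFOX3 and SOX10 at 0. Hepatocyte markers summed to 4.53 to 4.74 kb with TGF-beta and 9.07 to 9.90 kb with vehicle, with 4 of 7 covered in all and ALB, TTR and CYP3A4 at 0. Leukocyte markers summed to 2.28 to 2.34 and 3.44 to 3.77 kb with TGF-beta and vehicle, with 2 of 5 covered in all and CD4 at 0. The part of these markers in the results at BIRC7 and NKAIN4 was not tested.

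BIRC7 encodes livin, also called ML-IAP, an inhibitor of apoptosis protein. Proteins of this family carry BIR domains that bind caspases or their antagonists, and livin also has a RING domain with ubiquitin ligase activity. It is best known from melanoma, where the transcription factor MITF drives it. NKAIN4 encodes a small membrane protein of a family that interacts with the beta subunit of the sodium potassium pump and is best known from the nervous system. Enhancers are stretches of regulatory DNA that can lie far from the gene they act on, and H3K27ac without a nearby gene start is a common sign of an active one.

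BIRC7 lies at chr20:63235905-63240495 (GRCh38, plus strand), and NKAIN4 follows it at chr20:63240784-63254921. The annotation used gives no exons, so exon or intron is not stated for any peak. Positions below are in kb from the start of BIRC7, with negative values before it. YTHDF1, a reader of methylated adenosine in RNA, is on the minus strand and its own start lies at -19.77 kb, facing BIRC7. The microRNA gene MIR3196 lies inside BIRC7 at 2.87 to 2.94 kb, and LOC124904950 lies inside NKAIN4 at 6.76 to 13.43 kb. The long noncoding RNA gene FLJ16779 overlaps the far end of NKAIN4 and reaches 25.71 kb. ARFGAP1, which switches off the small GTPase ARF1 at the Golgi, spans 36.91 to 53.88 kb and holds MIR4326. COL20A1, a collagen gene, begins at 57.28 kb and runs past the end of the window.

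The promoters of BIRC7 and YTHDF1 are shown because the first had no peak over it in any of the 12 libraries and the second had one in 12 of 12. They are from RefSeq (GRCh38.p14), run 5′ to 3′ on the strand of the gene, and hold the 250 bases before the start and the 50 from it on. The BIRC7 promoter is chr20:63235655-63235954 on the plus strand, and that of YTHDF1 is chr20:63216082-63216381 on the minus strand. Capitals mark 3 motifs searched on both strands: CAGAC, which SMAD3 can bind (GTCTG where it lies on the other strand), and the E-boxes CACGTG and CATGTG, forms that MITF can bind.
BIRC7: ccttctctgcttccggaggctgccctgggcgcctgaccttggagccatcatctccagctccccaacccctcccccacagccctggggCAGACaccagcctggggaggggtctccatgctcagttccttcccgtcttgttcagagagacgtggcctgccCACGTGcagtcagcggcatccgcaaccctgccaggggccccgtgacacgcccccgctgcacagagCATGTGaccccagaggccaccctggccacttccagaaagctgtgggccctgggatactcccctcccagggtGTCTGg
YTHDF1: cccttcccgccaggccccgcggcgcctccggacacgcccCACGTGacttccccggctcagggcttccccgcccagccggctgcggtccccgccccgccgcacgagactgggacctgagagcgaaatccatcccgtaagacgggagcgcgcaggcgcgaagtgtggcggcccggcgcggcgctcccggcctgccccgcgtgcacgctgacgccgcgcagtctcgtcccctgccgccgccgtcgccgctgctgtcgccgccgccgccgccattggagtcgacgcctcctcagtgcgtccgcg
CAGAC stood in the BIRC7 promoter at -163 bases and, as GTCTG, at 44 bases from the start, CACGTG at -92 and CATGTG at -27, with no motif overlapping another. The YTHDF1 promoter held CACGTG at -211 bases and neither of the other motifs. Among 27305 promoters of the same length, 44.95% held CAGAC on either strand, 7.43% held CACGTG and 11.2% held CATGTG. These matches describe the letters and are not measured binding sites.

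Over the whole window of 119.0 kb, SMAD3 peaks covered 14.9 and 11.8 kb with TGF-beta (replicates 4 and 5) and 2.03 and 2.58 kb with vehicle. The means were 13.4 ± 2.19 kb with TGF-beta and 2.30 ± 0.390 kb with vehicle (SD, n = 2 libraries each), a 5.79-fold ratio (log2 2.30 with 500 bp added to each mean). Over all chromosomes used, SMAD3 length with TGF-beta was 1.53 times that with vehicle. The libraries did not overlap, and 26 and 28 peaks with TGF-beta stood against 2 and 3 with vehicle. H3K27ac covered 14.2 and 13.3 kb with TGF-beta (replicates 1 and 2) and 4.01 and 4.44 kb with vehicle. Its means were 13.7 ± 0.647 kb with TGF-beta and 4.22 ± 0.307 kb with vehicle, 3.25-fold (log2 1.59), beside 1.13-fold over all chromosomes. H3K9ac covered 10.9 and 12.5 kb with TGF-beta and 7.786 and 6.996 kb with vehicle. Its means were 11.7 ± 1.13 and 7.39 ± 0.559 kb for TGF-beta and vehicle, 1.59-fold (log2 0.63), beside 0.939-fold over all chromosomes. Both TGF-beta libraries lay above both vehicle libraries in every target, and H3K9ac had the smallest ratio of the 3.

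**Figure D1:**
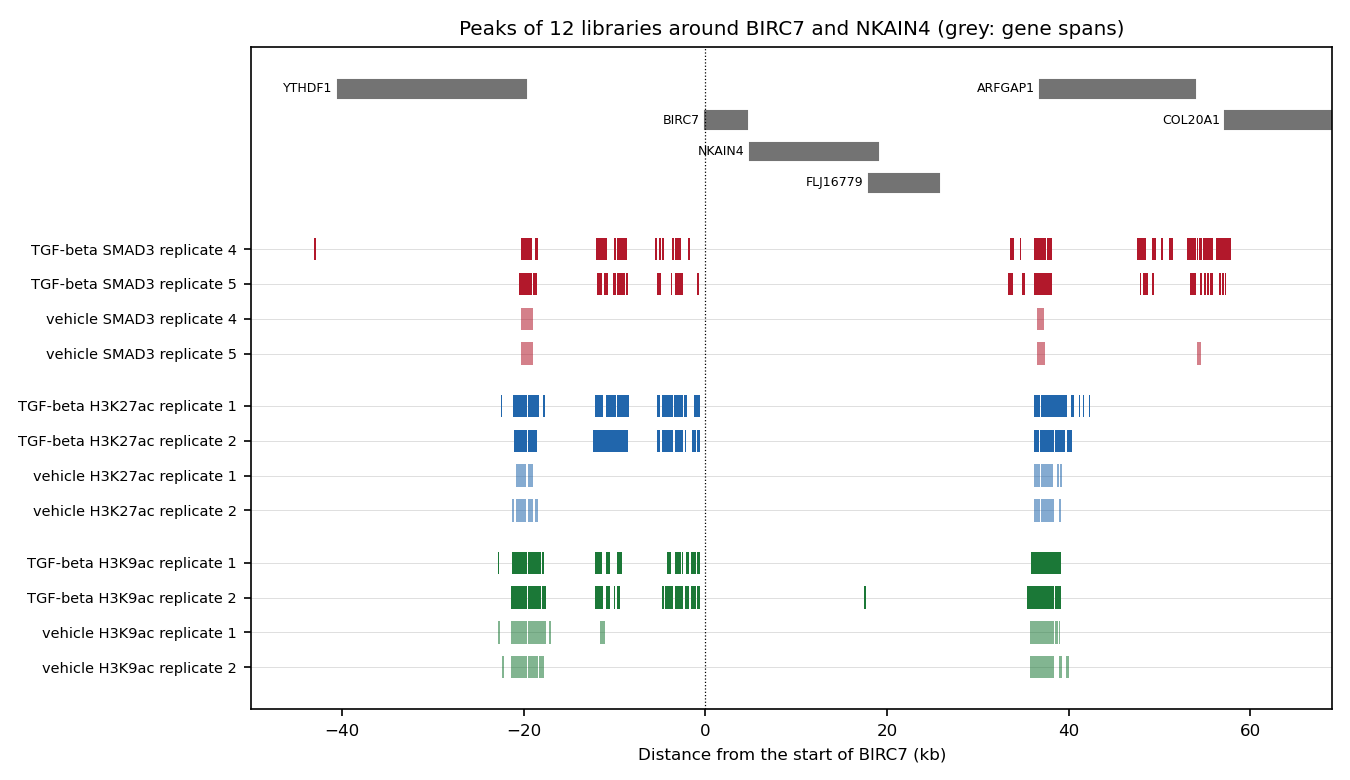
Peaks of each library (rows, TGF-beta above vehicle within each target; vehicle in lighter colour) against distance from the start of BIRC7 in kb, with gene spans in grey above. Peaks of all 3 targets lie in the 13 kb before BIRC7 in TGF-beta libraries, where 1 vehicle library had 1 peak. The spans of BIRC7 and NKAIN4 are empty apart from 1 H3K9ac peak.

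The added length of both acetylation marks lay mostly before BIRC7. Between YTHDF1 and BIRC7, a gap of 19.8 kb, H3K27ac covered 8.19 and 8.16 kb with TGF-beta and 0.620 and 0.946 kb with vehicle, a 10.4-fold ratio of means. H3K9ac covered 6.08 and 7.15 kb there with TGF-beta and 2.81 and 1.86 kb with vehicle, 2.84-fold. SMAD3 covered 5.28 and 5.07 kb with TGF-beta and 0.802 and 0.823 kb with vehicle, 6.37-fold. What vehicle libraries held in this gap was mostly the peaks around the YTHDF1 start.

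The 13 kb directly before BIRC7, bounds chosen after the peaks were seen, had almost no peak with vehicle. H3K27ac covered 6.89 ± 0.235 kb of them with TGF-beta and was listed at 0 in both vehicle libraries. SMAD3 covered 4.10 ± 0.314 kb with TGF-beta and was listed at 0 in both vehicle libraries. H3K9ac covered 4.68 ± 0.620 kb with TGF-beta, while vehicle replicate 1 had a single peak of 478 bp and vehicle replicate 2 had none. No ratio is given where a group is listed at 0, because without read counts a 0 sets no bound.

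The span of BIRC7 itself held no peak of any target in any of the 12 libraries. NKAIN4 held 1, an H3K9ac peak of 142 bp in TGF-beta replicate 2 at 17.51 to 17.65 kb with a score of 8.08, where the score is the peak caller's p or q on a -log10 scale. With TGF-beta the peak nearest to the BIRC7 start was 0.707 to 1.64 kb away for SMAD3, 0.570 to 0.590 kb for H3K27ac and 0.555 to 0.570 kb for H3K9ac. With vehicle it was 18.97 and 18.95 kb away for SMAD3, 18.97 and 18.40 kb for H3K27ac and 11.1 and 17.7 kb for H3K9ac. No peak of any library lay over either end of NKAIN4. The new peaks thus came close to the BIRC7 start without reaching it.

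**Figure D2:**
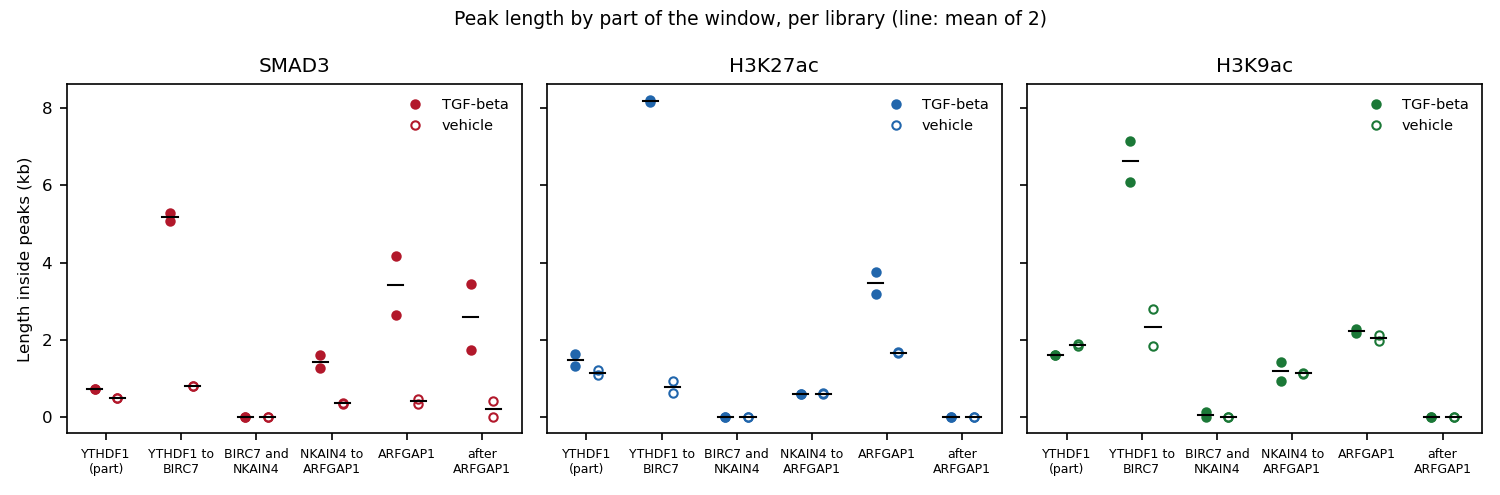
Length inside peaks (kb) in 6 stretches of the window for SMAD3, H3K27ac and H3K9ac, with filled points for TGF-beta libraries, open points for vehicle libraries and a line at the mean of 2. H3K27ac between YTHDF1 and BIRC7 stands at 8.19 and 8.16 kb with TGF-beta and at 0.620 and 0.946 kb with vehicle, and only SMAD3 has peaks after ARFGAP1.

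Within a target, overlapping peaks of its 4 libraries were joined into regions. A region was called gained when both TGF-beta libraries and no vehicle library had it, lost in the reverse case, constant when all 4 had it, and mixed otherwise. SMAD3 had 26 regions in the window, of which 13 were gained, 2 constant and 11 mixed. Over all chromosomes used, 13.7% of SMAD3 regions were gained, 0.669% lost, 41.7% constant and 44% mixed. H3K27ac had 18 regions, with 9 gained, 4 constant and 5 mixed, against 12% gained, 4.72% lost, 41.9% constant and 41.4% mixed in all its regions. H3K9ac had 18 regions, with 7 gained, 3 constant and 8 mixed, against 5.15% gained, 6.15% lost, 49.8% constant and 38.9% mixed. No region was lost in the window for any target. Since the window was chosen for its gains, these shares describe it and support nothing further. With the same number of top-scoring peaks kept in each SMAD3 library, 8 SMAD3 regions were gained in the window, beside 6.63% of all regions, and the log2 ratio of the window was 1.87.

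The 450 kb on either side of the window held fewer regions per length, and their gained shares were lower. For SMAD3, 3 of 25 regions on the left and 7 of 55 on the right were gained, beside 13 of 26 in the window, and 0 were lost on either side. For H3K27ac, 2 of 30 on the left and 2 of 51 on the right were gained, and 3 and 1 were lost. For H3K9ac, 2 of 37 and 0 of 41 were gained, and 3 and 5 were lost. The gained share of SMAD3 on the right, 12.7%, was near the 13.7% over all its regions. The window bounds cut through no cluster of peaks. The outermost peaks inside stood at -43.07 and 57.87 kb, and the nearest outside were H3K9ac peaks at about -133 and 262 kb. A flank of 100 kb therefore gave the same lengths.

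All 9 gained H3K27ac regions lay between YTHDF1 and BIRC7, in a far and a near group. The far group was 3 regions at -12.34 to -11.10, -11.01 to -9.77 and -9.72 to -8.46 kb, with scores of 130 and 133, 142 and 143, and 78.6 and 118 in the TGF-beta replicates 1 and 2. The near group was 6 regions from -5.35 to -0.57 kb. Its middle region, at -3.47 to -2.41 kb (chr20:63232431-63233497), was the strongest of the stretch in both libraries. It scored 246 and 224, which placed it in the top 3.67% and 5.77% of all peaks of those libraries. The region nearest to BIRC7, at -0.98 to -0.57 kb, scored 18.1 and 15.3.

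H3K9ac followed the same outline with lower ranks. All 7 of its gained regions also lay between YTHDF1 and BIRC7, at -10.99, -9.68, -4.45, -3.32, -2.24, -1.62 and -0.93 kb by their starts. Its top scores were at -3.32 to -2.44 kb (41.1 and 62.2) and at -0.93 to -0.56 kb (41.6 and 41.4). The best H3K9ac peak of the 13 kb stood in the top 37.5% and 31.8% of its libraries. A region at -12.12 to -11.09 kb was mixed, because vehicle replicate 1 had its 478-bp peak there with a score of 9.65, beside 32.7 and 51.1 with TGF-beta.

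SMAD3 gained 6 regions in the same stretch, from -12.03 to -2.46 kb. The longest, at -12.03 to -10.77 kb (chr20:63223878-63225140), scored 25.2 and 24.6 in TGF-beta replicates 4 and 5. The region at -3.31 to -2.46 kb, under the strongest H3K27ac, scored 24.2 and 8.24, so the replicates differed there. The top SMAD3 peak of the stretch ranked in the top 40.1% and 40.4% of its libraries. New SMAD3 peaks here were thus weak to moderate in rank, while the strongest of the new H3K27ac peaks reached the upper ranks. Median scores differed between SMAD3 libraries, at 15.0 and 13.8 with TGF-beta and 26.9 and 24.6 with vehicle, so scores are compared within a library alone.

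**Figure D3:**
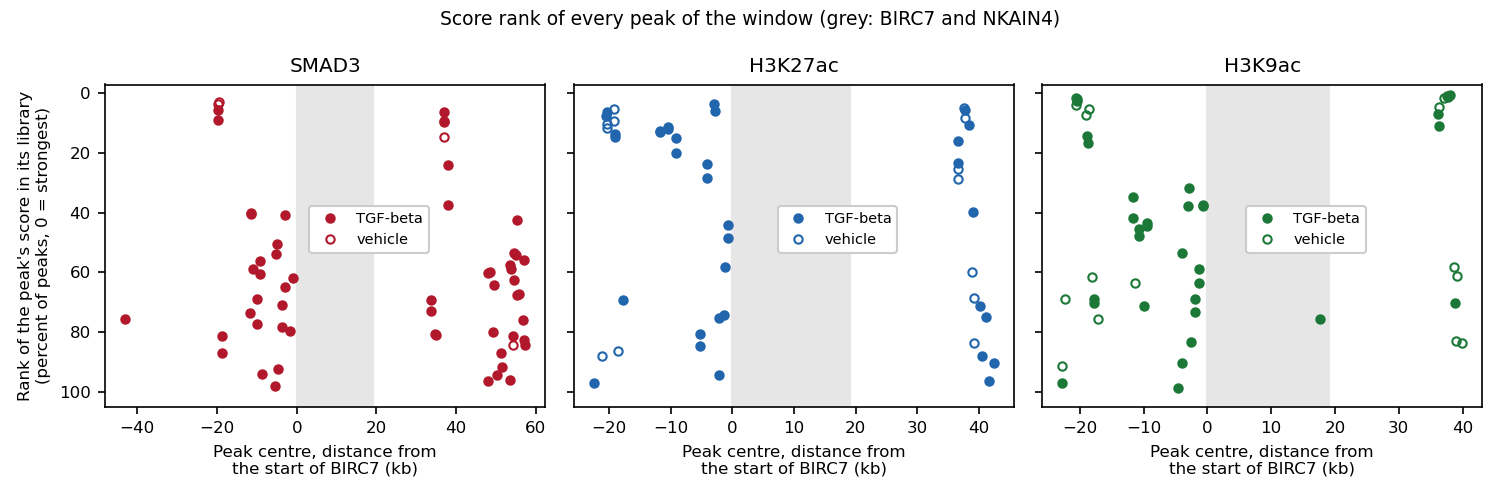
Rank of each peak's score within its own library (percent of peaks, 0 strongest, axis inverted) against the distance of the peak centre from the BIRC7 start in kb, with filled points for TGF-beta, open points for vehicle and BIRC7 with NKAIN4 in grey. Before BIRC7, H3K27ac peaks with TGF-beta reach the top 3.67%, while the best SMAD3 peaks stand near 40.1% and the best H3K9ac peaks at 31.8% and 37.5%.

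The 3 targets shared part of their bases in the 13 kb. Peaks of both TGF-beta libraries covered 2911 bp in SMAD3, 6232 bp in H3K27ac and 3999 bp in H3K9ac. Of the SMAD3 bases, 88.9% were under H3K27ac and 51.7% under H3K9ac. Of the H3K27ac bases, 41.5% were under SMAD3 and 52.7% under H3K9ac, and 82.1% of the H3K9ac bases were under H3K27ac. All 3 targets met on 1506 bp in 5 runs, the longest 627 bp at -3.29 to -2.66 kb (chr20:63232616-63233242) and the others between -11.92 and -9.36 kb.

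The overlap of gained regions is set beside that of all gained regions of the same target. Of the 9 gained H3K27ac regions, 6 overlapped a SMAD3 region present in both TGF-beta libraries, beside 4.08% of all gained H3K27ac regions, and 8 overlapped such an H3K9ac region, beside 10.8%. Of the 7 gained H3K9ac regions, 7 overlapped H3K27ac and 4 SMAD3, beside 90.9% and 11.7% of all gained H3K9ac regions. Of the 13 gained SMAD3 regions, 7 overlapped H3K27ac present in both TGF-beta libraries, beside 67.5% of all gained SMAD3 regions. In 6 of these 7 the H3K27ac region was itself gained, which held for 5.24% of all gained SMAD3 regions. These shares are descriptions, since the locus was chosen with the gains known, and region lengths were not matched. The 11 H3K27ac regions between YTHDF1 and BIRC7, 9 of them gained, had a median length of 1067 bp. Over all gained H3K27ac regions the median was 353 bp.

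The starts of YTHDF1 and ARFGAP1 were occupied under both treatments. At the YTHDF1 start, the constant SMAD3 region at -20.52 to -18.47 kb scored 175 and 148 with TGF-beta and 145 and 184 with vehicle. H3K9ac in the YTHDF1 part of the window covered 1.62 and 1.60 kb with TGF-beta and 1.84 and 1.89 kb with vehicle, both TGF-beta libraries below. At the ARFGAP1 start, constant SMAD3 at 36.22 to 37.59 kb scored 137 and 172 with TGF-beta and 85.3 and 127 with vehicle. H3K27ac there, at 36.89 to 40.61 kb, was present in all 4 libraries but longer with TGF-beta, at 3263 and 3203 bp against 1688 and 1656 bp with vehicle. A gained SMAD3 region, at 37.63 to 38.19 kb, lay within this H3K27ac and within constant H3K9ac at 35.40 to 39.30 kb. It scored 69.5 and 30.0 in TGF-beta replicates 4 and 5, which ranked in the top 24.1% and 37.4%. H3K9ac over the ARFGAP1 span covered 2.28 and 2.19 kb with TGF-beta and 1.99 and 2.12 kb with vehicle.

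Farther downstream, over the last part of ARFGAP1 and beyond it, SMAD3 was gained without acetylation. From 45 to 60 kb, over the last part of ARFGAP1 and the first of COL20A1, SMAD3 covered 6.502 and 3.179 kb with TGF-beta, in 10 and 12 peaks. With vehicle it was listed at 0 in replicate 4 and covered 0.422 kb, in 1 peak, in replicate 5. H3K27ac and H3K9ac were listed at 0 there in all 8 libraries. The strongest SMAD3 peaks, at 54.78 to 55.94 kb, scored 21.8 and 11.4 and ranked in the top 42.4% and 54.2%. Before BIRC7, in comparison, 88.9% of the SMAD3 bases lay under H3K27ac.

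The same downstream peaks make up the SMAD3 length of COL20A1, counted over the gene span with 10 kb on each side, at 6.502 and 3.179 kb with TGF-beta and 0 and 0.422 kb with vehicle. They lie in the window that was chosen for its gains, so the value is a description with no test. Both acetylation marks were listed at 0 in that gene window in all 8 libraries.

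By gene window, again the span with 10 kb on each side, BIRC7 and NKAIN4 were listed at 0 in all 6 vehicle libraries. BIRC7 had 3.04 and 2.82 kb of SMAD3, 4.93 and 4.81 kb of H3K27ac and 3.03 and 3.74 kb of H3K9ac with TGF-beta. NKAIN4 had 1.62 and 1.45 kb of SMAD3, 3.29 and 3.17 kb of H3K27ac and 2.51 and 3.47 kb of H3K9ac. The windows overlap, and apart from the 142-bp H3K9ac peak the length counted for NKAIN4 lay before BIRC7. The BIRC7 changes were 2.46 ± 0.13 (SE) for SMAD3, 3.34 ± 0.08 for H3K27ac and 3.04 ± 0.09 for H3K9ac on the log2 scale, with 500 bp added to each length and libraries centred. They ranked 16th of 12508, 5th of 13994 and 2nd of 14605 genes. NKAIN4 ranked 90th, 13th and 4th with 1.70, 2.81 and 2.88. Against a group at 0 these values move with the 500 bp added and are no bound on the ratio. Since vehicle is at 0, the sign of these values was fixed by the choice of the pair, and both genes passed the minimum mean length through the TGF-beta libraries. The pair was chosen by its change in peak length, so the high ranks follow from that choice and are a description.

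**Figure D4:**
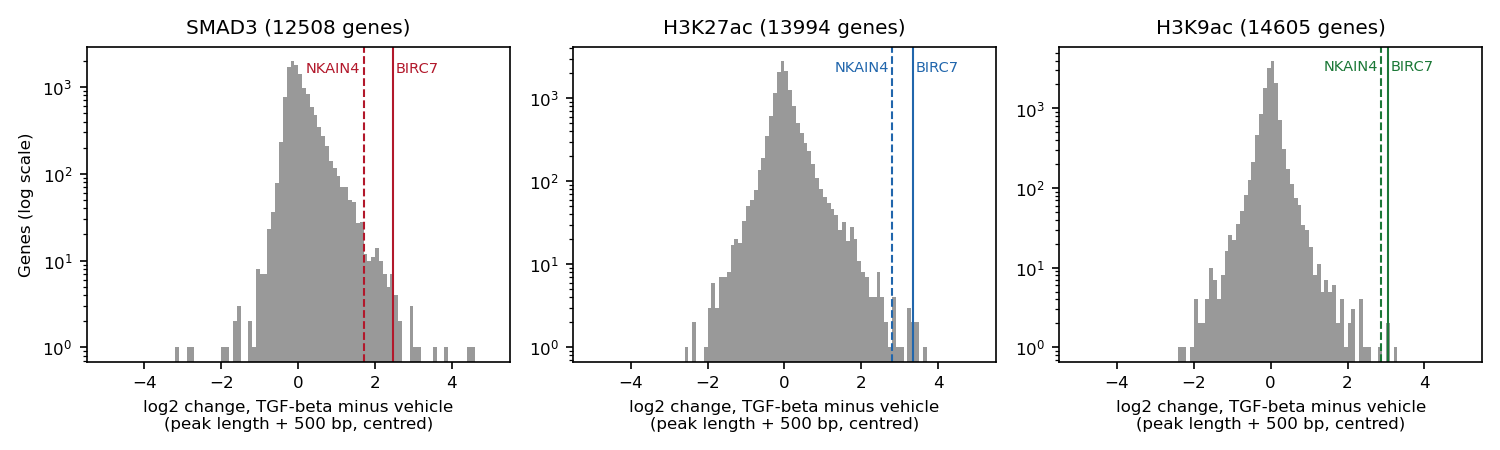
Number of protein-coding genes (log axis) by log2 change in peak length, TGF-beta minus vehicle, for SMAD3, H3K27ac and H3K9ac, with BIRC7 as a solid line and NKAIN4 as a dashed line. Both lines stand in the upper tail of every panel, from 1.70 for NKAIN4 in SMAD3 to 3.34 for BIRC7 in H3K27ac. The pair was chosen by its change in peak length, so this position follows from the choice.

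The genes most like BIRC7 over the 12 centred values, by Euclidean distance, were R3HDML (1.24), XKR7 of the XK-related membrane proteins (1.40), COMP (2.33), the homeobox gene DMBX1 (2.57) and IFITM10 (2.87), with a median of 6.99 over all genes. For NKAIN4 they were XKR7 (1.13), R3HDML (1.64), DMBX1 (1.66), IFITM10 (2.40) and the GABA-B receptor gene GABBR2 (2.46), with a median of 6.38. R3HDML and XKR7 are on chromosome 20 too, at chr20:44337043-44351238 and chr20:31968151-32003387, far from BIRC7. R3HDML had 3.31 and 1.69 kb of SMAD3 with TGF-beta and 0 in both vehicle libraries, and 5.31 and 4.91 kb of H3K27ac with TGF-beta against 0.024 and 0.014 kb with vehicle. COMP, a cartilage matrix protein gene, had 4.64 and 4.61 kb of H3K27ac with TGF-beta and 0 in both vehicle libraries. Its H3K9ac was 4.68 and 5.68 kb with TGF-beta and 0.916 and 0.872 kb with vehicle, where BIRC7 was listed at 0.

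Other genes of the apoptosis inhibitor pathway were read against the share of all genes called. Of 13 inhibitors, antagonists and caspases listed, 12 were in the annotation. In SMAD3, 10 could be tested, of which 1 rose and 2 fell, with a median log2 change of -0.16 beside -0.03 over all genes, where 11.2% of all genes rose and 1.68% fell. In H3K27ac, 3 of 11 rose and 1 fell (median -0.09 beside -0.03), where 14.8% of all genes rose and 11.7% fell. In H3K9ac, 1 of 11 rose and 1 fell (median -0.02 beside 0.00), where 4.25% and 5.22% of genes rose and fell. No listed gene that could be tested in all 3 targets rose in all 3. XAF1, which rose in both marks, missed the minimum mean length in SMAD3 and was not tested there. It had 1.019 and 0.668 kb of SMAD3 with TGF-beta and 0 in both vehicle libraries.

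Among the inhibitors, BIRC3 (cIAP2), a ubiquitin ligase of TNF signalling, had 1.357 and 1.496 kb of SMAD3 with TGF-beta and 2.04 and 3.24 kb with vehicle. Its SMAD3 fell by 1.00 on the log2 scale (limma adjusted p = 0.002837), relative to a median shift of 0.32 that centring removed. Without centring its change was -0.68 with an adjusted p of 0.08801. XIAP, the direct caspase inhibitor, had 3.88 and 3.87 kb of H3K27ac with TGF-beta and 2.384 and 2.504 kb with vehicle. That rise of 0.48 (limma adjusted p = 0.003991) was 0.09 with 2.5 kb on each side of the gene (adjusted p = 0.4387).

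The antagonists of these inhibitors rose in part. XAF1, an antagonist of XIAP, had 4.21 and 4.04 kb of H3K27ac with TGF-beta and 2.23 and 2.37 kb with vehicle, a rise of 0.64 on the log2 scale (limma adjusted p = 0.001346). Its H3K9ac rose by 0.67 (limma adjusted p = 0.004511; 0.05879 without centring). DIABLO, a mitochondrial protein that binds IAPs, rose by 0.32 in H3K27ac (limma adjusted p = 0.02756). HTRA2, a mitochondrial protease that also binds IAPs, rose by 0.58 in SMAD3 (limma adjusted p = 0.01524). The call for DIABLO was lost without any 1 of the 4 libraries, with a score of at least 5 and with the same number of peaks, with adjusted p of 0.05435 to 0.1608. The call for HTRA2 was lost without TGF-beta replicate 4 (adjusted p = 0.0603), vehicle replicate 4 (0.05897) or vehicle replicate 5 (0.05566), with a score of at least 5 (0.06191), with the same number of peaks (0.4175) and with 2.5 kb on each side (0.1969). Its change was 0.03 with 50 kb on each side.

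CASP9, the initiator caspase of the mitochondrial pathway, fell in all 3 targets. Its H3K27ac was 1.97 and 1.96 kb with TGF-beta and 2.61 and 2.73 kb with vehicle, a fall by 0.45 on the log2 scale (limma adjusted p = 0.005249, lost under none of 14 alternatives). Its SMAD3 fell by 0.57 (limma adjusted p = 0.02265) and its H3K9ac by 0.35 (limma adjusted p = 0.04422). The SMAD3 call was lost without TGF-beta replicate 4 (adjusted p = 0.1244), vehicle replicate 4 (0.08811) or vehicle replicate 5 (0.07441), without centring (0.3183) and with the same number of peaks (0.08986). The H3K9ac call was lost without TGF-beta replicate 1 (adjusted p = 0.2098), TGF-beta replicate 2 (0.05665) or vehicle replicate 1 (0.1133), and under 4 of the other alternatives, with adjusted p of 0.06744 to 0.1204.

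In the family of NKAIN4 and its pump partners, counts lay near the share of all genes called or below it. Of 18 listed genes, 9 could be tested in SMAD3 and 0 passed with limma, while 4 had an unadjusted p under 0.05 and the fit with the replicate number as a block called 1 (11.2% of all genes rose and 1.68% fell). In H3K27ac, 1 of 11 rose and 0 fell, with 5 at an unadjusted p under 0.05, and in H3K9ac, 0 of 11 rose and 1 fell. Over all genes, 14.8% rose and 11.7% fell in H3K27ac, and 4.25% rose and 5.22% fell in H3K9ac. Their median log2 changes were 0.00, -0.09 and 0.04 in SMAD3, H3K27ac and H3K9ac, beside -0.03, -0.03 and 0.00 over all genes. ATP1B1, which encodes a beta subunit of the pump, had 12.4 and 11.9 kb of H3K27ac with TGF-beta and 8.73 and 9.37 kb with vehicle. Its rise was 0.32 on the log2 scale (limma adjusted p = 0.02043). That call was lost without TGF-beta replicate 1 (adjusted p = 0.1051), TGF-beta replicate 2 (0.08191) or vehicle replicate 1 (0.0606). No member of this list rose in more than 1 target.

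Headers of the peak files recorded the sequencing lane. Lane 8 held every SMAD3 library and, of each mark, TGF-beta replicate 2, and lane 7 held the rest. Within lane 7, the log2 ratio of peak length over the window was 1.64 for H3K27ac and 0.53 for H3K9ac, beside 1.59 and 0.63 over both lanes.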

How the data were processed

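ChIP-seq peak files of 12 libraries of H69 cells (SMAD3, H3K27ac and H3K9ac, 2 TGF-beta and 2 vehicle libraries each) were used. Per the labels' protocols, crosslinking took 10 min (1% formaldehyde) and reads were paired, of 51 bases. Per the submitters' processing notes, BWA, Picard, MACS2 and bedtools were used on hg38; no source used here gives versions, cutoff or control. The score per peak that the authors deposited was -log10 of a p-value or q-value (which of them is not stated), and served here to rank peaks within a library and for a minimum in one alternative. Chromosomes 1 to 22 and X were kept. Peaks overlapping by at least 1 bp were merged within a target.

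Gene values were the length inside peaks in the RefSeq gene span with 10 kb on each side, as log2 of length plus 500 bp, where the mean reached 500 bp, centred on the median over tested genes covered in all 4 libraries of a target. Centring removed shifts of 0.32, 0.09 and -0.09 in SMAD3, H3K27ac and H3K9ac. Treatment was tested with limma 3.58.1 (R 4.3.3) on the 4 libraries of a target, Benjamini-Hochberg adjusted at 0.05 over all genes tested, after checks on simulated data. Where 1 library of a treatment was left out, the other was assumed to vary like the rest. An exact two-sided permutation test of 2 against 2 cannot go below 0.333. The labels do not say that replicates were separate cultures, so p-values measure only the spread between these libraries. Other steps used Python 3.11.15, numpy 2.4.6, pandas 2.3.3, scipy 1.17.1 and matplotlib 3.10.9.

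The genes, lists, markers and alternatives were chosen with earlier results of these data known. Named were both genes, all genes overlapping the window, list members that passed in any target, and the 5 genes nearest to each of the pair over 12 values. Promoters were matched by symbol, which found BIRC7, YTHDF1 and LOC124904950. Values of 2 genes of the lists and markers are not reported here.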

Additional observations from a re-analysis of the deposited data

How the results depend on the processing

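The log2 ratio of peak length in the window kept its direction under every alternative run. Without each library in turn it ran from 2.13 to 2.46 in SMAD3, 1.53 to 1.66 in H3K27ac and 0.53 to 0.72 in H3K9ac. It was 2.78, 3.43 and 2.98 with a flank of 10 kb, where every vehicle library is at 0, so that the 500 bp added sets these values and they are no bound. It was 1.87 in SMAD3 with equal numbers of peaks, where 8 regions were gained beside 6.63% of all regions. Without each library in turn, gained regions numbered 13 to 24 in SMAD3 and 9 to 15 in H3K27ac. The share of all regions called moved too. Gained SMAD3 regions were 24 (35.8% of all) without TGF-beta replicate 4 and 22 (35.3%) without replicate 5, and gained H3K27ac regions 15 (23.9%) without TGF-beta replicate 2. Lost H3K9ac regions numbered 0 to 2, with 2 (13.7% of all) without vehicle replicate 1 and 1 (20.6%) without vehicle replicate 2. With 2.5 kb gene windows neither gene of the pair reached the minimum mean in SMAD3 or H3K27ac, nor NKAIN4 in H3K9ac. With 10 kb windows NKAIN4 missed it in SMAD3 without TGF-beta replicate 4. With 50 kb gene windows the BIRC7 change was 1.68 in SMAD3, 1.47 in H3K27ac and 0.73 in H3K9ac. For NKAIN4 these were 1.92, 1.47 and 0.73.

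Counts of genes moved more. Without each library, SMAD3 rose in 706 to 1572 and fell in 83 to 242 genes, H3K27ac fell in 935 to 1382 and H3K9ac in 425 to 902. SMAD3 fell in 116 genes with 2.5 kb windows, 136 with a pseudocount of 2000 bp, 136 with a score of at least 5, 88 with the same number of peaks (624 rose) and 11 without centring. Windows of 50 kb gave 2255 and 766 SMAD3 genes that rose and fell, 3028 H3K27ac genes that fell and 1133 and 1183 H3K9ac genes that rose and fell. Without centring 880 H3K27ac genes fell and 180 and 377 H3K9ac genes rose and fell. H3K9ac fell in 507 genes with a pseudocount of 100 bp. The cause of these shifts was not tested.

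Of the apoptosis list, without each library 0 to 1 rose and 1 to 2 fell in SMAD3, 1 to 2 fell in H3K27ac and 0 to 1 fell in H3K9ac. In SMAD3, 0 rose with 2.5 kb windows, with a score of at least 5 and with the same number of peaks (1 fell), and 0 fell without centring. Without the filter (the minimum mean of 500 bp), where only genes at 0 in every library were left out, 2 rose in SMAD3. In H3K27ac 5 fell with 50 kb windows and 2 with limma's trend and robust options. In H3K9ac 0 rose and 0 fell without centring, 0 fell without the filter or with 100 bp, 2 fell with 2000 bp or with trend and robust options and 3 with 50 kb windows.

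Of the sodium pump list, without each library 0 to 1 rose in SMAD3, 0 to 1 rose and 0 to 2 fell in H3K27ac and 0 to 1 fell in H3K9ac. With 50 kb windows 2 rose and 2 fell in SMAD3 and 4 fell in H3K27ac. In H3K27ac 2 rose without centring, 1 fell with 2000 bp and 1 fell with trend and robust options.

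Replicate numbers were not stated to pair libraries, and their differences correlated at -0.07, -0.02 and -0.14 in SMAD3, H3K27ac and H3K9ac. With the replicate number as a block, SMAD3 rose in 1471 and fell in 200 genes, 1 pump list member rose in SMAD3, and no other list count changed. Peak length without read counts cannot separate depth from occupancy.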
